A study of Rattus norvegicus with 12 samples.

Results

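A list of 10 genes of the endoplasmic reticulum (ER) stress response, 5 in each of 2 arms, was followed in rat liver before and after partial hepatectomy (PH), the surgical removal of most of the liver. The ATF4 arm was ATF4, DDIT3, TRIB3, ASNS and FGF21, and the chaperone arm was HSPA5, XBP1, HERPUD1, DNAJB9 and PDIA4. The genes were chosen by name, with earlier results of these data known. Of the 10, 9 were found among the 14692 genes of the RNA sequencing table. DDIT3 was not found under its symbol or the synonyms RefSeq gives for it and is not analysed here. All 9 genes found, 4 of the ATF4 arm and 5 of the chaperone arm, had a mean of at least 1 RPKM (reads scaled to transcript length and library total) and were among the 8459 genes tested.

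Male Sprague Dawley rats aged 4 to 5 months received a biliary fistula, a catheter that drains bile out of the body, or a sham fistula (Control), and PH followed 24 h later. Every rat, Control included, also had a catheter in the duodenum with continuous saline. In 1 of the 2 fistula groups sodium taurocholate, a bile acid (BA), was infused into the duodenum at 0.5 mg per gram body weight per day from 12 h before PH. Whole liver was taken at 0, 4, 12 and 24 h, which gave 12 columns of values. The columns are titled Cont, BF and BA, and the labels disagree on the last pair of names. By the titles and the study's usage BF is the fistula alone and BA the fistula with infusion, whereas the sample descriptions say the reverse. Both carried a fistula under either reading, so the groups are called here the BF columns and the BA columns, as titled, and nothing is drawn from them about the infusion. The fistula also drains all other parts of bile, which the infusion does not replace.

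The authors averaged a pair of runs into each column, one on a single rat and one on combined RNA of 3 further rats. No spread between rats can be computed within a group and time, and the number of reads is unknown, so single ratios have no replicate check. Tests therefore used the 3 groups as repeats of each time step. Whole liver holds several cell types, and fewer cells of a type cannot be told apart from less RNA per cell. The hepatocyte markers identified the tissue, with 8 of 9 found and expressed and ALB, which encodes albumin, at 41049 RPKM or more in every column. A pair of columns stood apart. In the BA column at 4 h ALB was at 303637 RPKM, against at most 99928 RPKM elsewhere, and the 10 most abundant genes took 53.2% of all RPKM, against at most 41.0% elsewhere. In the BF column at 12 h the 21 pancreatic acinar markers found summed to 166.4 RPKM, against 5.92 to 23.8 RPKM elsewhere, and 20 of the 21 were highest there. Acinar cells are rich in ER chaperones. Values without these columns are given where leaving one out ended the call of a change given here or moved its value by more than 1.5 times. TRIB3 at 4 h is an exception.

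The ER folds secreted and membrane proteins, and hepatocytes, which secrete most plasma proteins, hold a great deal of it. When unfolded proteins build up, sensors in the ER membrane start the unfolded protein response. IRE1 splices the mRNA of XBP1 and thereby yields an active transcription factor, ATF6 is cut to release one, and both raise chaperones and components of ER-associated degradation (ERAD). The sensor PERK instead phosphorylates the initiation factor eIF2α, which slows translation in general and favours that of ATF4. Other eIF2α kinases respond to lack of amino acids or of haem, so ATF4 and its targets can be induced without ER stress. ATF4 raises genes of amino acid supply such as ASNS, the pseudokinase TRIB3, the hormone FGF21 and the factor CHOP, the product of DDIT3. RNA levels of ATF4 and XBP1 report neither translation nor splicing.

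Promoters are shown for 5 of the genes so that the regulatory letters of each can be set beside its course after PH. RefSeq promoters of the GRCr8 assembly, 250 bases before and 50 after the annotated start, were matched for 10 of 10 genes. Searched on both strands were the ER stress element ERSE (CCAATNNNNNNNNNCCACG), the related ERSE-II (ATTGGNCCACG), the C/EBP-ATF response element CARE (TGATGNAA) and the UPRE core (TGACGTGG). ERSE was in 0.0657% of all 33469 promoters of that length, ERSE-II in 0.0508%, CARE in 3.98% and the UPRE core in 0.595%. The promoters of Hspa5, chr3:38452766-38453065 on the plus strand, and Xbp1, chr14:84604373-84604672 on the plus strand, each held 1 ERSE. That of Herpud1, chr19:10614658-10614957 on the minus strand, held an ERSE-II and a CARE. Those of Fgf21, chr1:105221327-105221626 on the minus strand, and Trib3, chr3:161275484-161275783 on the minus strand, each held a CARE. All 3 CARE matches lay on the strand opposite to the gene. The capitals mark the matches, and a match is a description of letters, not a site of binding.
Hspa5: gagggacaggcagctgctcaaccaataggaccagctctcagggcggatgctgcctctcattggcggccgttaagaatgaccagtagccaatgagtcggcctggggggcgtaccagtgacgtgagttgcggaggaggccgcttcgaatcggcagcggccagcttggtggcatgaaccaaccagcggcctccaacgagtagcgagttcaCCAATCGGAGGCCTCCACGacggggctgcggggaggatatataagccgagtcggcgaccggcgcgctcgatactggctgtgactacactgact
Xbp1: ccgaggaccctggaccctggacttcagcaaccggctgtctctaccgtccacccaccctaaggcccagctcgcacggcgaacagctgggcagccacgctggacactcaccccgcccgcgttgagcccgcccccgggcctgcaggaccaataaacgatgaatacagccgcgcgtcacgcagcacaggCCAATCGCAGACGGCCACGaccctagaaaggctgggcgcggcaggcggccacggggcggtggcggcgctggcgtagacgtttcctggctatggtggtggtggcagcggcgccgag
Herpud1: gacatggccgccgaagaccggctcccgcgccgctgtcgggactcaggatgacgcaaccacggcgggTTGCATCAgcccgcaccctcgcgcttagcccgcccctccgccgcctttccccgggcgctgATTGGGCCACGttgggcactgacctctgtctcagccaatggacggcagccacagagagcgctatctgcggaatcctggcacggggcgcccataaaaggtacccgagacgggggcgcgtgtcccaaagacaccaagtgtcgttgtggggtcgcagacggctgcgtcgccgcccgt
Fgf21: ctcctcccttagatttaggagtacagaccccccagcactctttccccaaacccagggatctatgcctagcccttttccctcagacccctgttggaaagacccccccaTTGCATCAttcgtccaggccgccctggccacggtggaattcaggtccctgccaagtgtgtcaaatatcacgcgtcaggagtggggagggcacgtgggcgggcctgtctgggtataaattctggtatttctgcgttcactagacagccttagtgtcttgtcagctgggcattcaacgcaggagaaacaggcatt
Trib3: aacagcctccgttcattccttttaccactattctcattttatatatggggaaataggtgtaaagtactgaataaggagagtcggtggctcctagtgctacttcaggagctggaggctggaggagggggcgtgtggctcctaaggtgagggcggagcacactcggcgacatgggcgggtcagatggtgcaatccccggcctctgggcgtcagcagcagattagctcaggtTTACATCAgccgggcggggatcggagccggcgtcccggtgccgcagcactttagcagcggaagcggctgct
No match to these 4 patterns was found within these 300 bases of Atf4, Ddit3, Asns, Dnajb9 or Pdia4, and no UPRE core in any of the 10. The ERSE genes and the CARE genes are thus mostly in different arms, with Herpud1 holding letters of both.

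The arms were expressed at very different levels. HSPA5, which encodes the main ER chaperone BiP, had the highest mean at 867 RPKM over the 12 columns, above 99.0% of the genes tested. PDIA4, a disulfide isomerase, followed at 371 RPKM, XBP1 at 229.6 RPKM, ATF4 at 154 RPKM, HERPUD1 at 91.3 RPKM and DNAJB9 at 50.4 RPKM. FGF21 at 9.09 RPKM, TRIB3 at 6.31 RPKM and ASNS at 5.63 RPKM were the lowest. The order of the spread was different. The highest column exceeded the lowest by 25.7-fold for FGF21, 14.4-fold for ASNS and 3.83-fold for TRIB3. For the chaperone arm this ratio ran from 2.00-fold for HSPA5 to 3.58-fold for HERPUD1, and for ATF4 itself it was 2.28-fold. The low level of FGF21, ASNS and TRIB3 leaves fewer reads behind each value, and the depth is unknown.

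**Figure D1:**
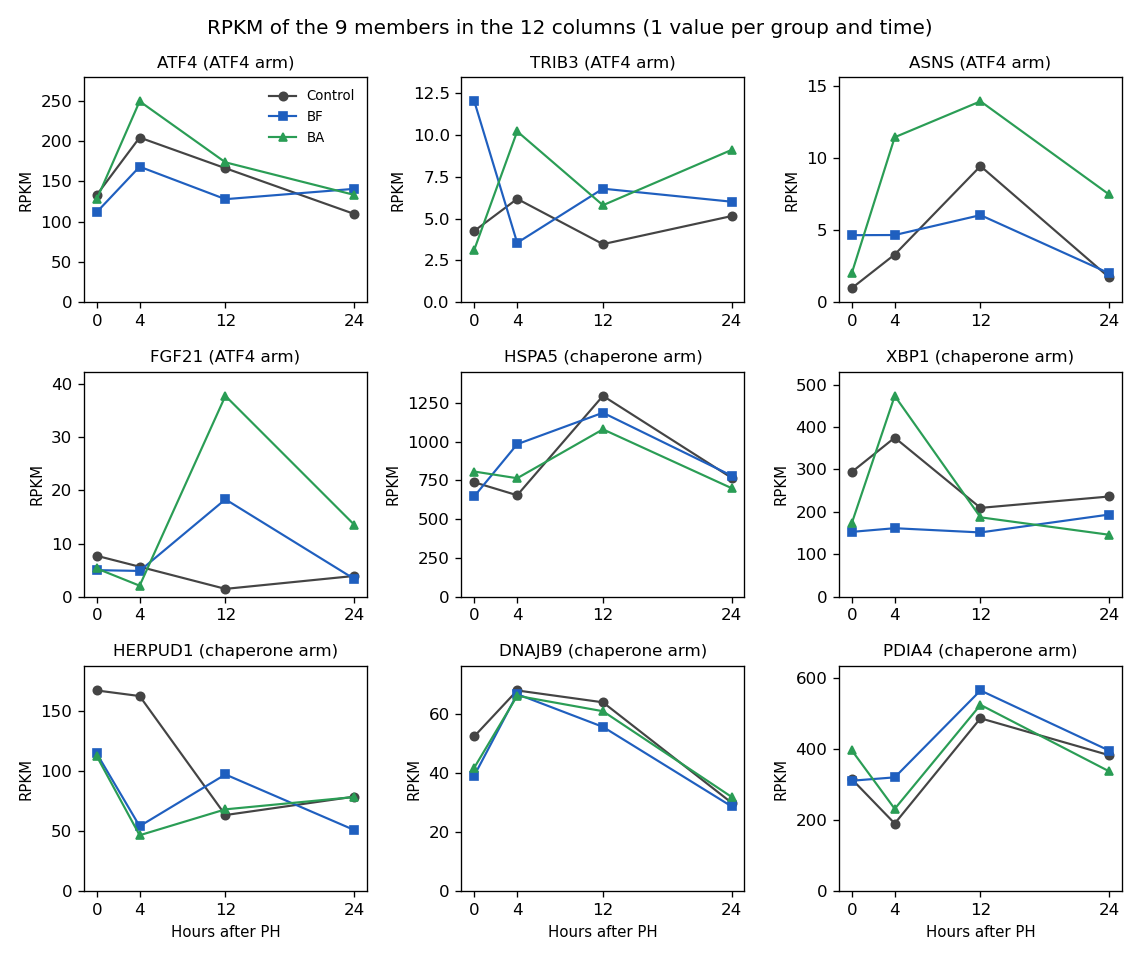
RPKM (vertical axes, linear and starting at 0) of the 9 genes against hours after PH, with 1 point for each group and time and no error bars, since each point is the authors' mean of 2 runs. ATF4 peaked at 4 h in all 3 groups, HSPA5 at 12 h in all 3 groups, and FGF21 reached 37.8 RPKM in the BA column at 12 h against 1.47 RPKM in Control.

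ATF4 and DNAJB9 were higher and PDIA4 lower at 4 h, and 4 genes were higher at 12 h, namely ASNS, HSPA5, PDIA4 and DNAJB9. All 4 calls at 12 h were lost when the Control column at 12 h was left out. At 24 h DNAJB9 was below its level at 0 h and no other gene of either arm passed the test. Differences are on the log2(RPKM + 1) scale, which understates changes of weakly expressed genes, with limma's standard error (SE), and adjusted p-values are Benjamini-Hochberg values over all 8459 genes. At 4 h 2 of the 9 genes rose and 1 fell, where 12.9% of all genes tested rose and 32.4% fell. At 12 h 4 of the 9 rose and 0 fell, against 9.03% and 22.5% of all genes. At 24 h 0 rose and 1 fell, against 30.6% and 5.54% of all genes. No gene of either arm rose at 24 h by limma even at an unadjusted p of 0.05. The 3 time steps share the columns at 0 h.

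The median gene was not level between times. Its difference from 0 h was -0.20 at 4 h, -0.12 at 12 h and 0.21 at 24 h on the log2 scale, and -0.12 between fistula and Control. With all columns brought to an equal median gene, the genes called higher made up 41.9% of the genes called at 4 h in place of 28.4%, 49.0% in place of 28.7% at 12 h and 37.6% in place of 84.7% at 24 h. For fistula against Control they were 69.1% in place of 22.5%. The directions below are those of the deposited RPKM. For the 9 genes, calls that rescaling ended or made are named, and for the wider lists the rescaled counts are given.

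ATF4, the transcription factor that gives the arm its name, was at 133 RPKM in Control at 0 h, 204 at 4 h, 166 at 12 h and 109.5 at 24 h. The BA columns held 128, 249, 173 and 133 RPKM at these times, and the BF columns 112, 168, 128 and 141 RPKM. The column at 4 h was the highest of its group in all 3 groups. Over the groups ATF4 rose by 0.72 on the log2 scale at 4 h (SE 0.15, adjusted p = 0.00518 by limma), in 3 of 3 groups. All 17 alternative analyses kept this call, and without the BA column at 4 h the difference was 0.62 (adjusted p = 0.0252 by limma). At 12 h it was 0.32 (SE 0.15, adjusted p = 0.142 by limma) and did not pass.

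ASNS, asparagine synthetase, is a classical ATF4 target. In Control it was at 0.97 RPKM at 0 h, 3.30 at 4 h, 9.43 at 12 h and 1.71 at 24 h. In the BA columns it was at 2.02, 11.4, 13.9 and 7.46 RPKM, and in the BF columns at 4.64, 4.65, 6.03 and 2.00 RPKM. The 12 h column was the highest of each group, and the step from 0 h was far smaller in the BF columns, which began highest. Over the groups ASNS rose by 1.68 at 12 h (SE 0.41, adjusted p = 0.0151 by limma). The call was lost without the Control column at 0 h (adjusted p = 0.0644), the Control column at 12 h (0.078) or the BA column at 0 h (0.0539). At 4 h the difference of 1.06 (SE 0.41) had an adjusted p of 0.0617 by limma, 0.205 without the BA column at 4 h and 0.00434 without the BF column at 0 h.

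TRIB3, a pseudokinase that restrains AKT and ATF4, had different courses in the columns of the 3 groups. In the BF columns it was at 12.0 RPKM at 0 h and 3.55 at 4 h, then 6.79 and 6.01 RPKM. The BA columns held 3.14 RPKM at 0 h, 10.2 at 4 h, 5.80 at 12 h and 9.11 at 24 h. In Control it stayed between 3.47 and 6.18 RPKM. The BF column at 0 h was thus the highest of all 12 and the BA column at 0 h the lowest of all 12. No time step passed the test over the groups, with a difference of 0.12 at 4 h (SE 0.44, adjusted p = 0.836 by limma). This 4 h difference averages log2 ratios of 0.45 in Control, -1.52 in BF and 1.44 in BA, so its sign can turn on 1 column. Its value with single columns left out is not given.

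FGF21, a hormone the liver secretes in fasting and under stress, was in Control at 7.70 RPKM at 0 h, 5.64 at 4 h, 1.47 at 12 h and 3.90 at 24 h. For the BA columns the values were 5.31, 2.07, 37.8 and 13.6 RPKM, and for the BF columns 5, 4.85, 18.3 and 3.37 RPKM. Both fistula columns at 12 h were thus above every Control column, and that of Control at 12 h was the lowest of all 12. The BF column at 12 h is the one with acinar markers, and the part of acinar cells in its FGF21 value was not tested. The step from 0 h to 12 h, as a log2 ratio, was -1.82 in Control, 1.69 in the BF columns and 2.62 in the BA columns. Averaged over groups it was 0.83 (SE 0.82, adjusted p = 0.468 by limma), 0.41 without the BF column at 12 h (adjusted p = 0.779 by limma), 0.050 without the BA column at 12 h (adjusted p = 0.976 by limma) and 2.04 without the Control column at 12 h (adjusted p = 0.0414 by limma).

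HSPA5 was at 738 RPKM in Control at 0 h, 654 at 4 h, 1295 at 12 h and 766 at 24 h. In the BA columns it was at 807, 764, 1079 and 699.9 RPKM, and in the BF columns at 647, 983, 1186 and 781 RPKM. All 3 columns at 12 h were above the other 9. HSPA5 rose by 0.70 at 12 h (SE 0.17, adjusted p = 0.0143 by limma), in 3 of 3 groups. Without the BF column at 12 h, the one with acinar markers, the difference was 0.73 (adjusted p = 0.0333 by limma). The call was lost without the Control column at 12 h (adjusted p = 0.0712) or the BF column at 0 h (0.0659).

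PDIA4 was at 315 RPKM in Control at 0 h, 190.4 at 4 h, 486 at 12 h and 382 at 24 h. BA columns had 396, 232, 524 and 337 RPKM. BF columns had 311, 320.1, 564 and 395 RPKM, without the dip at 4 h of the other groups. It rose by 0.63 at 12 h (SE 0.17, adjusted p = 0.0225 by limma), and all 3 columns at 12 h were above the other 9. This call was lost in 5 of 17 alternatives, each the loss of 1 column, namely Control at 0 h (adjusted p = 0.0639) or 12 h (0.0814), BA at 12 h (0.0581), and BF at 0 h (0.0961) or 12 h (0.0561). At 4 h it fell by 0.48 on the log2 scale (SE 0.17, adjusted p = 0.0442 by limma), a call lost in 12 of 17 alternatives, rescaling on the median gene (0.0962) and leaving out the BA column at 4 h (0.134) included.

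DNAJB9, a cochaperone of BiP that also acts in ERAD, had a similar course in the columns of the 3 groups. In Control it was at 52.4 RPKM at 0 h, 67.9 at 4 h, 63.9 at 12 h and 29.9 at 24 h. The BA columns held 41.8, 66.1, 60.85 and 31.9 RPKM, and the BF columns 39.1, 66.6, 55.6 and 28.7 RPKM. At each time after PH the 3 columns lay within a narrow band, and the bands at 4 h and 24 h did not overlap. It rose by 0.59 at 4 h (SE 0.11, adjusted p = 0.00245 by limma) and by 0.44 at 12 h (SE 0.11, adjusted p = 0.0139 by limma), and fell by 0.53 on the log2 scale at 24 h (SE 0.11, adjusted p = 0.00519 by limma). The calls at 4 h and 24 h held in all 17 alternatives. That at 12 h was lost without the Control column at 12 h (adjusted p = 0.0561), the BA column at 0 h (0.0545) or the BF column at 0 h (0.0585).

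XBP1, the transcription factor of the IRE1 branch, was at 294 RPKM in Control at 0 h, 375 at 4 h, 209 at 12 h and 236 at 24 h. It reached 174, 474, 187 and 146 RPKM in the BA columns. In the BF columns it was at 153, 162, 152 and 194 RPKM, the lowest of the groups at 0, 4 and 12 h. The highest value was in the BA column at 4 h, the one in which ALB was also highest. No time step passed the test. At 4 h the difference was 0.62 (SE 0.30, adjusted p = 0.113 by limma), 0.22 without the BA column at 4 h (adjusted p = 0.48 by limma) and 0.98 without the BF column at 4 h (adjusted p = 0.0197 by limma).

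HERPUD1, an ERAD scaffold in the ER membrane, was at 167 RPKM in Control at 0 h and 163 at 4 h, then 63.5 and 78.8 RPKM at 12 and 24 h. In the fistula groups it was already low at 4 h. The BA columns held 113, 46.7, 68.3 and 78.5 RPKM, and the BF columns 115, 54.2, 97.3 and 51.1 RPKM. Every column after PH except Control at 4 h was thus below all 3 columns at 0 h. The differences over the groups were -0.79 at 4 h (adjusted p = 0.106 by limma), -0.78 at 12 h (adjusted p = 0.134 by limma) and -0.91 at 24 h (adjusted p = 0.0769 by limma), each with an SE of 0.36. In a fit of fistula by time, in which Control and fistula columns each had their own time course, the adjusted p values by limma were 0.0201, 0.0295 and 0.0167. That fit averages the change over the groups, but takes the residual of a gene from the BF and BA columns alone. Control, with 1 column per time, adds nothing to it. At 4 h the log2 ratios averaged were -0.04 in Control, -1.07 in BF and -1.25 in BA. Rescaling on the median gene also moved the 24 h difference past the threshold (-1.24, adjusted p = 0.032 by limma). Without the BA column at 4 h the 4 h difference was smaller, at -0.48, and did not pass.

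**Figure D2:**
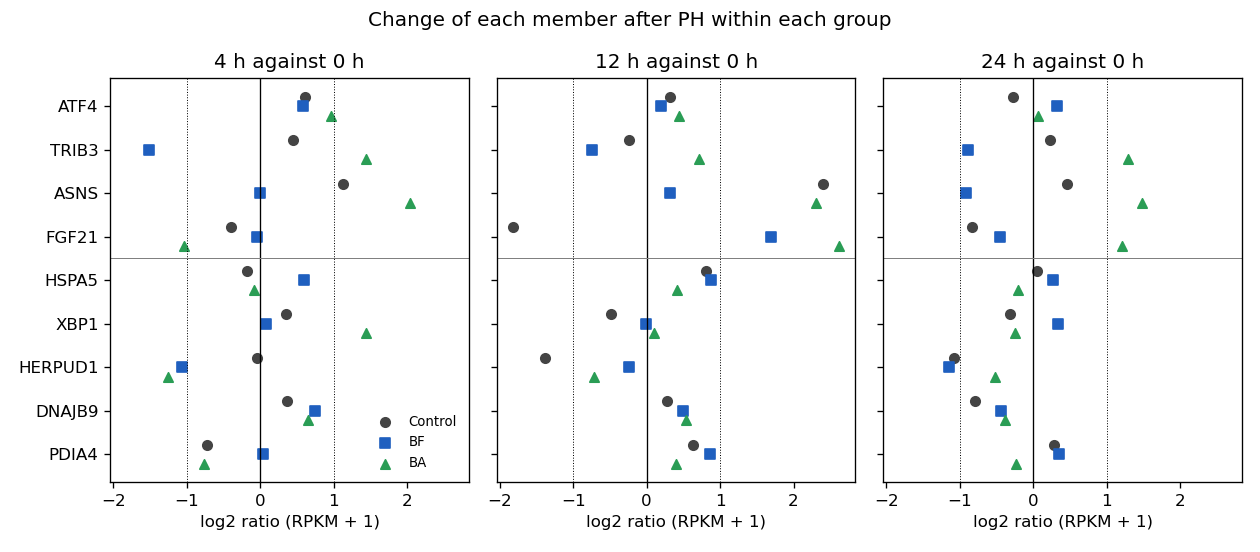
Change of each gene from 0 h to 4, 12 and 24 h after PH (3 panels) as log2 ratio of RPKM + 1 (horizontal axes) in the Control, BF and BA columns, with the ATF4 arm above the grey line and the chaperone arm below it. Dotted lines mark 2-fold. DNAJB9 and HSPA5 at 12 h keep the 3 groups close together, whereas TRIB3 at 4 h runs from -1.52 to 1.44 and FGF21 at 12 h from -1.82 to 2.62.

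Set side by side, most ratios of 2-fold or more were those of the ATF4 arm. Of the 36 ratios to 0 h in the ATF4 arm (4 genes, 3 times, 3 groups), 10 were at least 2-fold higher and 3 at least 2-fold lower. Of the 45 ratios in the chaperone arm, 1 was at least 2-fold higher and 5 lower. Over all genes tested and the same 9 comparisons, 4.76% of ratios were 2-fold higher and 5.83% lower. Of the 10 higher ratios of the ATF4 arm 7 were in the BA columns, 2 in Control and 1 in the BF columns, and none was that of ATF4. The 3 lower ones were those of TRIB3 and FGF21. All ratios counted in this arm were thus of its weakly expressed genes, with means of 5.63 to 9.09 RPKM. The chaperone arm had means of 50.4 RPKM or more. The ratios of a gene within a group share the column at 0 h. In the chaperone arm the higher ratio was XBP1 in the BA column at 4 h, and all 5 lower ratios were those of HERPUD1.

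The ATF4 arm had its highest medians in the BA columns. The median log2 ratio to 0 h was 1.20 at 4 h, 1.51 at 12 h and 1.25 at 24 h in the BA columns, where the medians of all genes tested were -0.32, -0.13 and 0.15. In Control the arm's medians were 0.53, 0.042 and -0.026, and in the BF columns -0.017, 0.26 and -0.68. At 24 h the BA column exceeded Control for all 4 genes, with a median log2 ratio of 1.15, and 2 of the 4, ASNS and FGF21, were at least 2-fold higher, where 0.721% of all genes were. The BF column at 24 h had a median of 0.17 against Control, with 0 of 4 genes 2-fold higher, against 0.768% of all genes. These comparisons have 1 column on each side and no test. Under the sample descriptions the BA columns would be the fistula without infusion.

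The chaperone arm had medians of -0.041, 0.28 and -0.32 in Control at 4, 12 and 24 h, 0.079, 0.50 and 0.27 in the BF columns and -0.079, 0.40 and -0.25 in the BA columns. At 12 h the medians of all 3 groups were thus above 0 and above those of all genes, which were -0.16, -0.054 and -0.13. Averaged over the groups, the arms had medians of 0.42 (ATF4) and 0.12 (chaperone) at 4 h, 0.57 and 0.44 at 12 h, and 0.12 and -0.075 at 24 h.

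Before PH, the question was whether a fistula of 24 h had moved either arm. None of the 9 genes passed the test at 0 h by limma, 0 at an unadjusted p of 0.05, where 0.461% of all genes passed. ASNS had a fitted difference of 1.07 (SE 0.76, adjusted p = 0.698 by limma), XBP1 of -0.85 (SE 0.54, adjusted p = 0.674), HERPUD1 of -0.55 (SE 0.30, adjusted p = 0.621) and DNAJB9 of -0.37 (SE 0.17, adjusted p = 0.548). This fit takes the BF and BA columns as samples of 1 condition and assumes that the lone Control column varies like them. With such SEs only large differences could have passed.

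As single ratios to Control at 0 h, ASNS and TRIB3 were highest in the BF column, with log2 ratios of 1.52 and 1.31, and 2 of the 4 genes of the ATF4 arm were thus 2-fold higher, where 1.73% of all genes were. In the BA column the same genes were at 0.62 and -0.35, and 0 of 4 were 2-fold higher, where 1.87% of all genes were. ATF4 itself was at -0.25 in BF and -0.06 in BA, and FGF21 at -0.54 and -0.46. The ATF4 arm had a median of 0.53 in BF and -0.20 in BA, beside -0.18 and -0.097 for all genes.

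In the chaperone arm XBP1, HERPUD1 and DNAJB9 were lower than Control at 0 h in both fistula columns. The log2 ratios were -0.94 and -0.76 for XBP1 in BF and BA, -0.54 and -0.57 for HERPUD1 and -0.41 and -0.32 for DNAJB9. HSPA5 was at -0.19 and 0.13, and PDIA4 at -0.02 and 0.33. None of the 5 reached 2-fold, where 2.16% (BF) and 2.15% (BA) of all genes were 2-fold lower. The arm's medians were -0.41 and -0.32. Both ratios share the Control column, and marker sums also differed in it. Neutrophil markers, 4 of 5 found, summed to 3.11, 22.8 and 22.4 RPKM in Control, BF and BA at 0 h. Most of this was S100A8 (0.63, 8.58 and 9.28 RPKM) and S100A9 (2.25, 13.5 and 12.6 RPKM), while MPO was at 0.01, 0.03 and 0 RPKM. Macrophage markers summed to 234, 179 and 172 RPKM, and B and plasma cell markers to 2.29, 0.79 and 0.55 RPKM. The part of these cell types in the ratios was not tested. Other ER folding and ERAD genes, set out further below, went the other way as a set at 0 h. The 23 tested had a median fitted difference of 0.12 between fistula and Control, beside -0.14 for all genes.

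**Figure D3:**
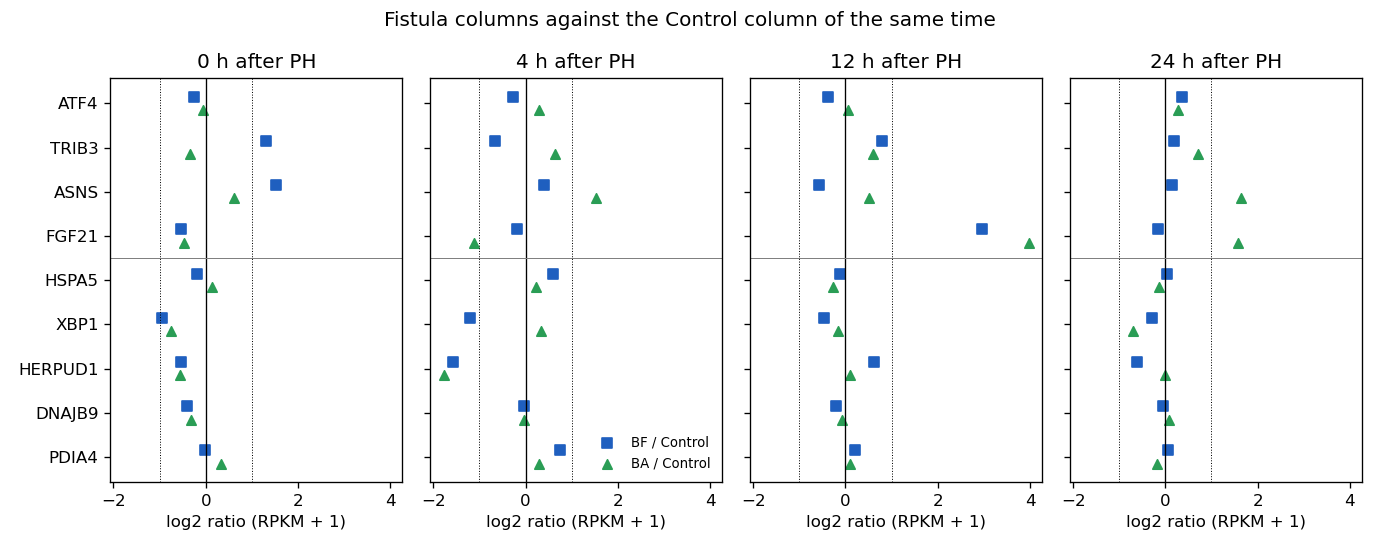
Log2 ratio of RPKM + 1 (horizontal axes) of the BF and BA columns to the Control column of the same time, in 4 panels for 0, 4, 12 and 24 h after PH, with the ATF4 arm above the grey line and dotted lines at 2-fold. At 0 h XBP1, HERPUD1 and DNAJB9 lie left of 0 in both fistula columns, at 4 h HERPUD1 lies below 2-fold lower in both, and at 12 h FGF21 lies at 2.97 and 3.97.

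Over the 4 times, none of the 9 genes passed the test between fistula and Control, where 1.31% of all genes did. By limma 2 had an unadjusted p below 0.05. XBP1 had a difference of -0.52 (SE 0.22, adjusted p = 0.174 by limma) and ASNS of 0.72 (SE 0.31, adjusted p = 0.175 by limma). HERPUD1 was at -0.55 (SE 0.27, adjusted p = 0.231) and FGF21 at 0.76 (SE 0.62, adjusted p = 0.439). ATF4 (0.0020, SE 0.11) and HSPA5 (0.032, SE 0.13) had the smallest differences. XBP1 and DNAJB9 were below Control in 4 of 4 BF columns and ASNS above Control in 4 of 4 BA columns. Against Control alone, 0 of 9 passed in BF (0.804% of all genes) and 0 of 9 in BA (0.0709%), with 1 gene each at an unadjusted p below 0.05 by limma, XBP1 in BF and ASNS in BA. Between BF and BA 0 of 9 passed (0.0118% of all genes), and 0 had an unadjusted p below 0.05 by limma.

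At single times the largest fitted differences were those of HERPUD1 at 4 h and FGF21 at 12 h. HERPUD1 was at -1.67 in fistula against Control at 4 h (SE 0.30, adjusted p = 0.0798 by limma), where 0 of 9 passed, 1 had an unadjusted p below 0.05 by limma and 0.402% of all genes passed. FGF21 was at 3.47 at 12 h (SE 0.71, adjusted p = 0.699 by limma), where no gene of the whole table passed and 454 had an unadjusted p below 0.05. The test of whether the change from 0 h differed between fistula and Control gave 3.97 for FGF21 at 12 h (adjusted p = 0.575 by limma) and -1.12 for HERPUD1 at 4 h (adjusted p = 0.9999 by limma). None of the 9 passed such a test at 4, 12 or 24 h, where 0.0118%, 0.0473% and 0.0473% of all genes did, and 1, 1 and 0 had an unadjusted p below 0.05 by limma.

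The wider pathway was read from 4 lists. Of 30 other ATF4 and CHOP targets, 23 were tested. At 4 h 9 rose and 2 fell, which is 39.1% and 8.70% of them, where 12.9% and 32.4% of all genes did. At 12 h 6 rose and 3 fell (26.1% and 13.0%, against 9.03% and 22.5% of all genes). At 24 h 11 rose and 0 fell (47.8% and 0%, against 30.6% and 5.54%). Their median difference was 0.24, 0.19 and 0.40, beside -0.20, -0.12 and 0.21 for all genes. SLC1A4, a transporter of neutral amino acids, rose by 3.28 at 4 h (SE 0.41, adjusted p = 0.000603 by limma), from 2.63 to 3.09 RPKM at 0 h to 18.5 to 102 RPKM. SLC38A2, the glutamine carrier SNAT2, rose by 2.49 (SE 0.25, adjusted p = 0.000304 by limma) and the mitochondrial folate enzyme MTHFD2 by 1.59 (adjusted p = 0.0154 by limma). SLC1A4 and MTHFD2 were both highest in the BA column at 4 h. Without that column SLC1A4 still rose, by 2.64 (adjusted p = 0.000831 by limma), whereas the difference of 1.02 for MTHFD2 missed the threshold (adjusted p = 0.054 by limma).

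PHGDH, the enzyme that begins serine synthesis, had a difference of -0.48 at 4 h (adjusted p = 0.17 by limma). It rose by 1.14 at 12 h (adjusted p = 0.0127 by limma) and by 1.87 at 24 h (adjusted p = 0.00136 by limma), when its level was 10.04 RPKM in the Control column, 21.7 in the BA column and 6.92 in the BF column. PSAT1, the next enzyme, had a difference of 0.72 at 4 h (unadjusted p = 0.044, adjusted p = 0.0837 by limma). Without the BA column at 4 h this was 0.40. PSAT1 rose by 0.92 at 12 h (adjusted p = 0.0469 by limma, and 0.0865 without the BF column at 12 h). At 24 h it rose by 1.68 (adjusted p = 0.00389 by limma). CTH, cystathionine gamma-lyase, went the other way, with differences of -1.87 at 4 h and -3.08 at 12 h (adjusted p = 0.00323 and 0.000793 by limma). GPT2, an alanine aminotransferase, fell by 1.35 on the log2 scale at 4 h (adjusted p = 0.0115 by limma) and by 1.05 at 12 h (adjusted p = 0.0438). Without the BA column at 4 h the first of these was -0.77 (adjusted p = 0.00293 by limma), and without the BF column at 12 h the second was -0.95 (adjusted p = 0.124). Without the BA column at 4 h, 4 of the 23 rose and 3 fell at 4 h, where 894 and 1923 of all 8459 genes did. Without the BF column at 12 h, 3 rose and 3 fell at 12 h, where 563 and 1453 of all genes did. Rescaled on the median gene, 2 rose and 3 fell at 24 h, in place of 11 and 0, where 10.3% and 17.1% of all genes did. The 2 were PHGDH (1.56, adjusted p = 0.00516 by limma) and PSAT1 (1.40, adjusted p = 0.0164 by limma).

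Of 12 aminoacyl-tRNA synthetases, which load amino acids onto tRNA and include many ATF4 targets, 11 were tested. At 4 h 6 rose and 0 fell, at 12 h 4 rose and 1 fell, and at 24 h 3 rose and 0 fell, with medians of 0.51, 0.23 and 0.18. The shares that rose were 54.5%, 36.4% and 27.3%, beside 12.9%, 9.03% and 30.6% of all genes, so that at 24 h the share was no higher than that of all genes. WARS rose by 1.23, 1.92 and 0.95 (SE 0.23) and YARS by 1.15, 0.87 and 0.42 (SE 0.12) at the 3 times, each past the threshold. NARS and IARS both rose by 0.71 at 4 h. The single gene that fell was CARS, by 0.42 on the log2 scale at 12 h (SE 0.13, adjusted p = 0.0422 by limma, and 0.0525 without the BF column at 12 h). Rescaled columns gave 7, 5 and 0 that rose and 0 that fell. Of all genes 18.1%, 16.1% and 10.3% then rose, and 25.1%, 16.7% and 17.1% fell.

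Of 32 other ER folding and ERAD genes, 23 were tested, and their calls were mostly at 12 h. There 10 rose and 0 fell, against 0 and 2 at 4 h and 2 and 1 at 24 h. The share that rose at 12 h was 43.5%, where 9.03% of all genes did. At 4 h 8.70% fell, against 32.4% of all genes, and at 24 h 8.70% rose, against 30.6%. Their median was -0.15 at 4 h, 0.43 at 12 h and 0.12 at 24 h. CRELD2, an ER stress-inducible disulfide isomerase, rose by 1.81 (SE 0.33, adjusted p = 0.00462 by limma), from 41.8 to 76.8 RPKM at 0 h to 163 to 225 RPKM at 12 h. HYOU1, a large ER chaperone of the Hsp70 family, rose by 1.15 (SE 0.22, adjusted p = 0.0054 by limma). DNAJB11, a further BiP cochaperone, rose by 0.87 and SSR1, a translocon-associated protein, by 0.83. SEL1L, the adaptor of the ERAD ligase, had differences of -0.55 at 4 h and -0.70 at 24 h, and WFS1 of -0.54 at 4 h, each past the threshold. DNAJC10, an ER reductase, rose by 0.76 at 24 h. The count at 12 h was 10 and 0 without the BF column at 12 h, where 563 and 1453 of all 8459 genes rose and fell. It was 13 and 0 when rescaled, where 16.1% and 16.7% of all genes did. PDIA6 was listed at 0 in every column.

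**Figure D4:**
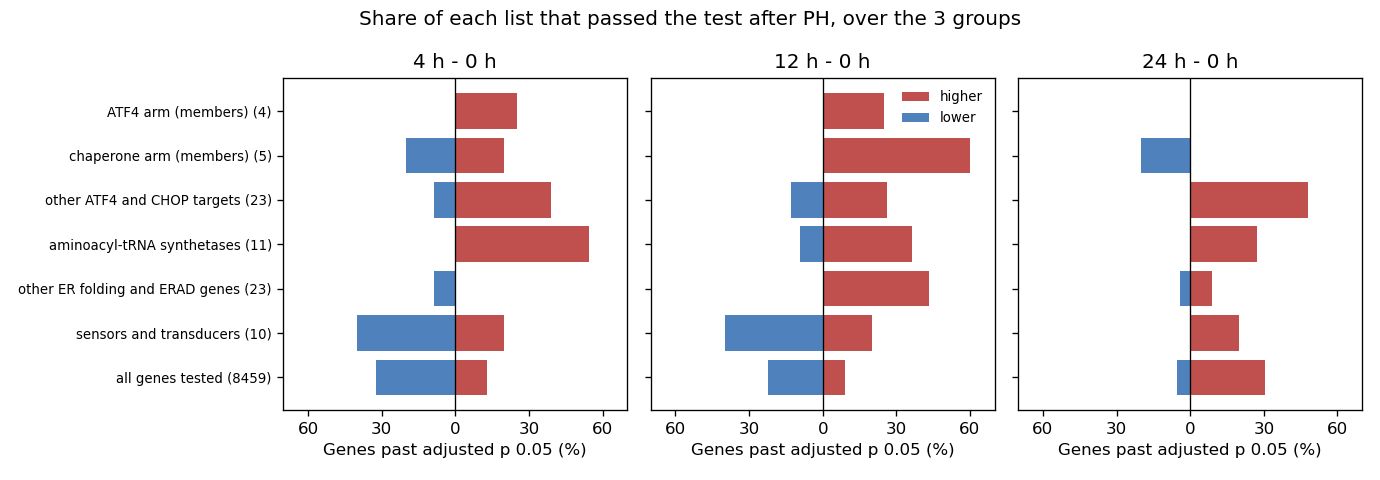
Share of each list past an adjusted p of 0.05 by limma (horizontal axes, percent of the genes tested, whose number stands in brackets), rising to the right and falling to the left, at 4, 12 and 24 h after PH over the 3 groups, with all 8459 genes tested at the bottom. At 4 h 6 of the 11 synthetases rose, at 12 h 10 of the 23 ER folding and ERAD genes rose, and at 24 h 30.6% of all genes were called higher, a share that rescaling on the median gene reduced to 10.3%.

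Of 13 sensors and transducers of the response, 10 were tested, with 2 that rose and 4 that fell at 4 h, the same counts at 12 h, and 2 and 0 at 24 h. Of all genes 32.4% fell at 4 h and 30.6% rose at 24 h, so that the 40% and 20% of this list were near and below the share of all genes. At 12 h 40% fell, against 22.5%. At 4 h and at 12 h 20% rose, against 12.9% and 9.03% of all genes. Their median was -0.33, -0.30 and 0.066. EIF2AK3, which encodes PERK, was at 5.37 to 10.8 RPKM in all columns and rose by 0.37 at 4 h (SE 0.13, adjusted p = 0.0487 by limma). It was highest in the BA column at 4 h, and the call was lost without that column (0.24, adjusted p = 0.188) or without the BF column at 12 h (adjusted p = 0.067). ATF6, at 26.6 to 40.5 RPKM, rose by 0.32 at 12 h (SE 0.098, adjusted p = 0.0366 by limma, and 0.101 without the BF column at 12 h). EIF2S1, which encodes eIF2α itself, rose by 0.85, 0.54 and 0.82 at the 3 times (SE 0.13). PPP1R15B, the constitutive targeting subunit of the eIF2α phosphatase, fell, with differences of -0.59 at 4 h and -0.63 at 12 h. TMBIM6, an inhibitor of IRE1 and cell death, fell too, with -0.47 at 4 h (adjusted p = 0.0261 by limma, and 0.0691 without the BA column at 4 h) and -0.79 at 12 h. The kinases EIF2AK4 (-0.50 at 4 h) and EIF2AK1 (-0.71 at 12 h) fell. Of the 2 proteases that cut ATF6, MBTPS2 rose by 0.51 at 24 h, a call lost on rescaling (0.24, adjusted p = 0.126 by limma). The other, MBTPS1, fell at 4 h and 12 h, the latter call also lost on rescaling (adjusted p = 0.0519 by limma). Without the BA column at 4 h, 1 rose and 3 fell at 4 h, where 894 and 1923 of all 8459 genes did. Without the BF column at 12 h, 1 rose and 4 fell at 4 h, where 1035 and 2632 of all genes did. At 12 h 1 rose and 3 fell without it, where 563 and 1453 of all genes did. Rescaled columns gave 4 that rose and 3 that fell at 4 h, where 18.1% and 25.1% of all genes did. They gave 2 and 3 at 12 h (16.1% and 16.7% of all genes), and 1 and 3 at 24 h (10.3% and 17.1%). EIF2AK2 was listed at 0 in every column.

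None of the 67 tested genes of these 4 lists passed the test between fistula and Control over the 4 times by limma. An unadjusted p below 0.05 was found for 23 of them (34.3%) and for 2271 of the 8459 genes (26.8%). At 4 h SDF2L1, a component of the BiP cochaperone complexes, was higher in fistula by 1.54 (SE 0.20, adjusted p = 0.0322 by limma), with 87.8 RPKM in the BF column and 84.2 in the BA column against 29 in the Control column, and was the only gene of the lists to pass at a single time. Its level in Control was 52.3 RPKM at 0 h and 112 at 12 h.

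The genes of an arm did not share 1 profile. Over the 12 columns Pearson's r of log2(RPKM + 1) ran from -0.18 to 0.53 over the 6 pairs of the ATF4 arm, with a median of 0.19. Over the 10 pairs of the chaperone arm it ran from -0.66, for XBP1 and PDIA4, to 0.75, for HSPA5 and PDIA4, with a median of -0.069. Over the 20 pairs between the arms it ran from -0.51 to 0.72 with a median of 0.062, and the highest was that of ATF4 and DNAJB9, which both peaked at 4 h. The columns share their times and the way they were scaled, so these values describe the table and have no test.

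The profiles of other genes were set beside each arm's mean standardised level. Closest to the ATF4 arm were H2AFY2 (r = 0.76), FABP4 (0.75), GDA (0.75), ARL11 (0.72) and OLR1 (0.72), 4 of which were highest in the BA column at 4 h. Closest to the chaperone arm were ASB13, DAP and VPS37C (each r = 0.85), FICD (0.82) and CCL24 (0.81), and of these FICD, which encodes an enzyme that adds AMP to BiP, ranged from 5.70 to 22.2 RPKM with its highest value in Control at 12 h. All r are over 12 columns, were picked as the highest among all other genes tested, and have no test.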

How the data were processed

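Liver RNA of 12 group and time combinations was sequenced, and the authors deposited 1 table of RPKM with 2 decimals, each column the mean of 2 runs. Reads had 50 cycles. Per the labels' processing notes the tools were CASAVA and Bowtie 0.12.2 and the builds named were rn4 and mm8, with no role given. The annotation is not given in the sources used here. Since RPKM is a share of the library, a gene such as ALB that takes much of it depresses all others. Averaged runs rounded to 2 decimals left no whole reads to recover, so the depth is unknown and no counting interval is given.

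Of the genes listed, 2303 were at 0 in all columns and 1 had no value. Genes averaging 1 RPKM or more, 8459 in all, were tested with limma 3.58.1 (R 4.3.3) on log2(RPKM + 1) with a mean-variance trend and Benjamini-Hochberg adjustment at 0.05. The model for time steps and for groups was additive (time and group), so its residual holds differences between rats together with any change that differs between groups. Fistula against Control at single times was fitted with fistula by time. Fits were tested on simulated data. Other work used Python 3.11.15, numpy 2.4.6, pandas 2.3.3 and matplotlib 3.10.9. The genes and lists were chosen with earlier results of these data known. Named were all 10 genes, and up to 4 of each list with the largest change among those past the threshold per comparison. Also named were the sensors by value and the 5 closest genes per arm. EIF2AK3, ATF6, MBTPS1 and CARS were named after their values were seen. The other marker lists summed to 0.28 to 2.29 RPKM (B and plasma cell), 129 to 234 (macrophage), 3.11 to 63.1 (neutrophil), 7.91 to 19.9 (cholangiocyte), 38.7 to 63.3 (endothelial) and 26.1 to 57.8 RPKM (stellate). Alternatives were a pseudocount of 0.1 RPKM, no filter, columns rescaled on the median gene, BF and BA exchanged, the other model, no trend, a 1.5-fold threshold, means in place of medians, and each column left out. All but the BF column at 12 h of these omissions were chosen after seeing the data.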

Additional observations from a re-analysis of the deposited data

Results flagged for a closer look

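Of the 27 changes from 0 h of the 9 tested genes, 13 had both signs among the 3 groups. Given here are 2 in which groups moved at least 2-fold in opposite directions, and 4 medians over an arm that had both signs. Each rests on 1 column per group and time, and none of these differences between the 3 groups was tested as such. The range between the groups is given on the log2 scale. For TRIB3 at 4 h it was 2.96, with 0.45 in Control, -1.52 in the BF columns and 1.44 in the BA columns. For FGF21 at 12 h it was 4.44, with -1.82 in Control, 1.69 in BF, the column with acinar markers, and 2.62 in BA. Of this pattern only the difference between fistula and Control was fitted (3.97, adjusted p = 0.575 by limma).

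For the median of the ATF4 arm the range was 1.22 at 4 h (0.53, -0.017 and 1.20 in Control, BF and BA) and 1.92 at 24 h (-0.026, -0.68 and 1.25). For the chaperone arm it was 0.16 at 4 h (-0.041, 0.079 and -0.079), which is smaller than most single changes, and 0.58 at 24 h (-0.32, 0.27 and -0.25). ALB was far higher in the BA column at 4 h than in any other column, and its part in the values at 4 h was not tested.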

How the results depend on the processing

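The alternatives gave 376 values for single genes, covering part of the differences above and not those of TRIB3. Of these values, 340 left direction and call as they were, 25 lost the call, 11 gained it and 0 reversed. Of 432 counts and arm medians, 382 stayed close, 42 moved and 8 reversed. No gene of either arm was called between fistula and Control under any alternative. Of the genes of the arms, 1 fell at 4 h, and 0 did with no filter or with rescaled columns. At 12 h 0 fell, and 1 did in the fistula by time model. At 24 h 1 fell, and 2 did with rescaled columns and in the fistula by time model. Rescaling made the ATF4 arm's median at 24 h -0.19 and the chaperone arm's -0.41. With BF and BA exchanged, the medians of BF against BA at 0 h were -0.41 (ATF4 arm) and 0.18 (chaperone arm), in place of 0.41 and -0.18, by construction. Means in place of medians gave the chaperone arm 0.17 at 12 h and -0.27 at 24 h. At 1.5-fold the changes from 0 h were 14 higher and 7 lower in the ATF4 arm and 8 higher and 9 lower in the chaperone arm.

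With each column left out in turn, the count that rose was 2 to 3 at 4 h, 1 to 4 at 12 h and 0 to 1 at 24 h. The count that fell was 0 to 1, 0 to 1 and 1 to 2. These counts need not be of the same genes. Without the Control column at 12 h the 12 h calls of ASNS, HSPA5, PDIA4 and DNAJB9 were all lost, and FGF21 gained one. Without the BF column at 0 h those of HSPA5, PDIA4 and DNAJB9 were lost. The ATF4 arm's median ran from 0.18 to 0.87 at 4 h, 0.096 to 0.81 at 12 h, -0.28 to 0.47 at 24 h and -0.20 to 0.53 for fistula at 0 h. The chaperone arm's ran from -0.13 to 0.26, 0.39 to 0.51, -0.28 to 0.032 and -0.41 to -0.32. The cause of these shifts was not tested. The fistula by time model cannot be made without a Control column. The additive model already matches the groups by time. No paired analysis was possible because the labels give no replicate numbers that tie single rats across groups or times.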

Other observations

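A pair of genes of the wider lists is given here after their values were seen. NUPR1, a stress-induced chromatin protein and ATF4 target, was at 241 RPKM in BF and 128 in BA at 0 h against 58.9 in Control, and at 55.9 and 139.9 against 25.7 RPKM at 24 h. Its difference between fistula and Control over the 4 times was 1.33 (SE 0.28, adjusted p = 0.0542 by limma), just short of the threshold, and both fistula columns were above Control at every time. EIF2S1 was lower in fistula at every time, by a fitted -0.41 (SE 0.10, adjusted p = 0.0748 by limma), with 24.0 RPKM in BF and 33.1 in BA at 0 h against 40.8 in Control.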
